A study of Mus musculus with 3 samples.

Results

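The major histocompatibility complex of the mouse, called H2, lies on chromosome 17. The region described here holds every DMC1 site with its centre between 33.8 and 37.5 Mb of that chromosome (mm10), a stretch of 3.7 Mb with the genes Psmb9, Psmb8, Tap1, Tap2 and Notch4. It was chosen by position and held 44 of the 24586 sites of the table, against 934 on the rest of chromosome 17. The animals were F1 males of C57BL/6J (B6) and CAST/EiJ (CAST), which carried a humanized (HUM) and a CAST allele of Prdm9. Whole testis of a male 10 weeks old gave the DMC1 ChIP-seq library, and an adult male gave the H3K4me3 ChIP-seq library. Both animals shared the genotype, so no group with other Prdm9 alleles stands beside them. The file headers credit raw H3K4me3 data to Li and colleagues. Whether the H3K4me3 values used here come from that H3K4me3 library is therefore not established.

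At the start of meiosis the histone methyltransferase PRDM9 recognises short DNA motifs through its zinc fingers and places H3K4me3 on the nucleosomes around them, and double-strand breaks then form there. DMC1 coats the single-stranded DNA at breaks under repair, so a DMC1 peak marks a recombination hotspot. The MHC holds the class II genes, which present peptides to helper T cells, the class III genes of complement and cytokines, and the class I genes, which present peptides from inside the cell. Psmb9 and Psmb8 encode catalytic subunits of the immunoproteasome, which cuts proteins into such peptides, and Tap1 and Tap2 encode the transporter that carries the peptides into the endoplasmic reticulum. Notch4 encodes a receptor of vascular endothelium. Crossover hotspots near Psmb9 and in H2-Eb1 were among the first to be mapped in mice, from recombinants within the MHC.

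Psmb9 (chromosome 17, 34182030 to 34187330, minus strand) and Tap1 (34187556 to 34197225, plus strand) are read in opposite directions from starts that face each other. The 225 bases between these starts are shown because they hold the promoters of this gene pair; the strongest site of the region lay outside them, beyond the other end of Psmb9. The sequence, from RefSeq for GRCm38.p6, the build that mm10 names, is written 5′ to 3′ on the minus strand (chr17:34187331-34187555). The second sequence is the stretch of 250 bases before the start of H2-M2, a class I gene (chr17:37483555-37483804, minus strand), shown because a DMC1 site had its centre there, the only one in a promoter window of the region. Its capitals mark the 21 bases around that centre.
Psmb9-Tap1: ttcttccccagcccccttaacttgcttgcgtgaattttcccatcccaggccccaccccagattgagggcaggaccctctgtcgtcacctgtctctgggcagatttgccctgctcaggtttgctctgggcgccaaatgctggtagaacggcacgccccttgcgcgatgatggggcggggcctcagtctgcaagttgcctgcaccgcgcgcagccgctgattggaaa
H2-M2: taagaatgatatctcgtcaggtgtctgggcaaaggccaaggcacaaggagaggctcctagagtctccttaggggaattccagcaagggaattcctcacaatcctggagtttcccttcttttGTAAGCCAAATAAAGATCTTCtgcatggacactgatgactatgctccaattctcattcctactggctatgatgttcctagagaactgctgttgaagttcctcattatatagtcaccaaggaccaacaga
The stretch between Psmb9 and Tap1 was 61.3% G or C with 12 CpG pairs, and the H2-M2 stretch was 44.8% G or C with 1. Of 237 promoter windows in the region, each 250 bases before to 50 after an annotated start, 1 held a site centre, and of 1626 on the whole chromosome 5 did.

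The site beside Psmb9 was the strongest of the region in DMC1. Its centre, at position 34180162, lay 1.87 kb beyond the 3′ end of Psmb9, 7.17 kb from the start of that gene and 7.39 kb from the start of Tap1. It was of the CAST class, with a DMC1 signal of 523 and an H3K4me3 enrichment of 71.7, both in the authors' units. The next site of the region had 272, so the Psmb9 site was 1.92-fold stronger and alone carried 17.8% of the region's summed DMC1. On chromosome 17 it ranked 33 of 978 sites in DMC1 and 11 in H3K4me3, and 27 among the 501 CAST sites in DMC1. Both homologues were used, with a DMC1 B6 share (the part of the signal on the B6 homologue) of 0.517 and an H3K4me3 B6 share of 0.468. It did not overlap an H3K4me3 peak that is independent of PRDM9. Because whole testis was assayed from 1 animal per library, fewer cells with a break and less signal per cell cannot be told apart, and no value has a replicate.

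The other member genes of antigen processing had no site of their own. Psmb8 (34198195 to 34201454) and Tap2 (34204479 to 34216321) had the Psmb9 site as their nearest, at 18.0 and 24.3 kb, and no site lay inside Psmb9 or Tap1. Notch4 (34564286 to 34588543) held 2 sites inside its body, both CAST. The one at 34574945 had DMC1 45.2 and H3K4me3 10.5, with B6 shares of 0.527 and 0.493. The one at 34580384, 5.44 kb further, had DMC1 12.7 and H3K4me3 5.36, with B6 shares of 0.80 for DMC1 and 0.411 for H3K4me3. They ranked 573 and 934 of 978 on the chromosome in DMC1, so Notch4 held weak sites. A further CAST site lay beyond Notch4, inside Pbx2, a homeodomain gene (34593997, DMC1 23.7, H3K4me3 15.6).

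**Figure D1:**
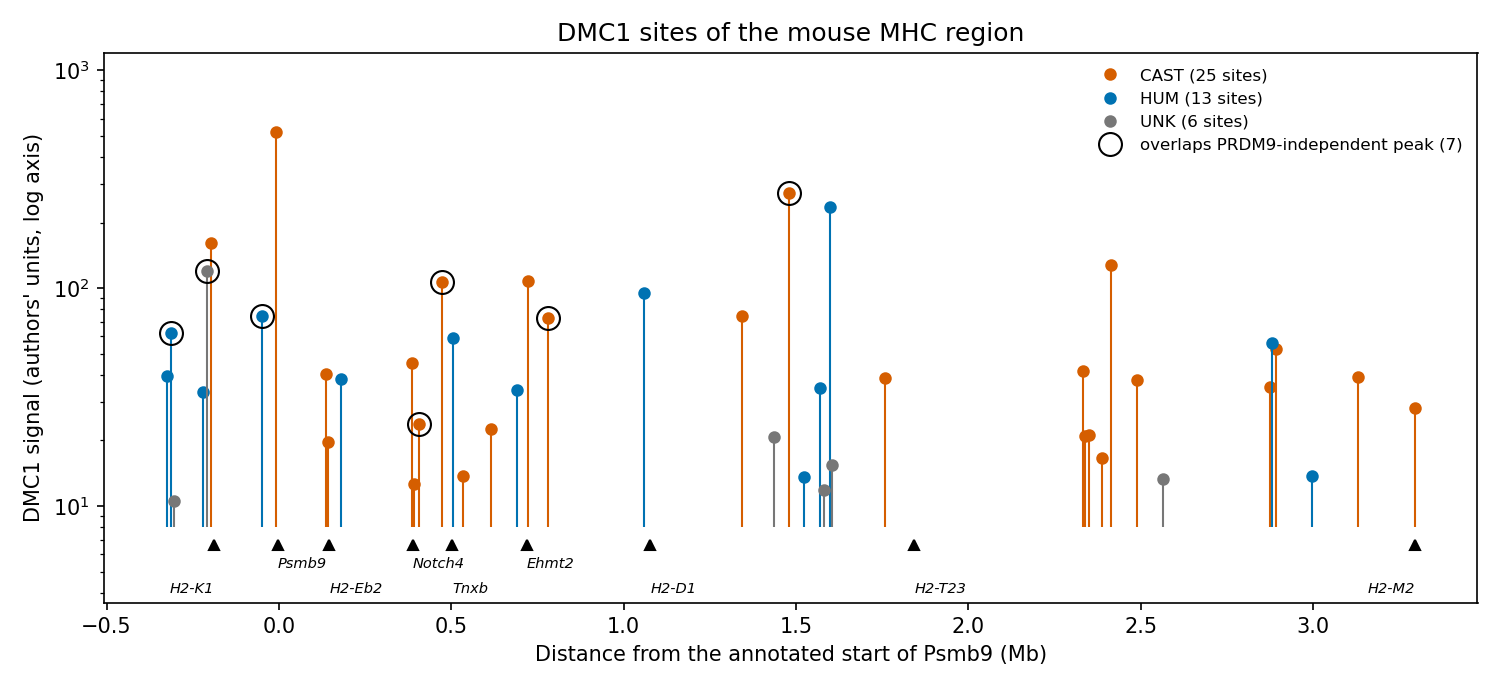
DMC1 signal (authors' units, log axis) of the 44 sites against distance from the annotated start of Psmb9 (Mb). Colour gives the PRDM9 class, a ring an overlap with a PRDM9-independent H3K4me3 peak, and triangles mark genes. The Psmb9 site stands at 523 near distance 0, and no site lies in the 574 kb around H2-T23.

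The sites of the region were 25 CAST, 13 HUM and 6 UNK, a class that the headers do not define. In shares these were 56.8% CAST (exact 95% interval 41.0% to 71.7%), 29.5% HUM (16.8% to 45.2%) and 13.6% UNK (5.17% to 27.4%). The rest of chromosome 17 had 51.0%, 39.6% and 8.99%, each inside the region's interval. The fourth class of the table, KO, likewise undefined, had 0 of 44 sites in the region, which allows a share of up to 8.04% by the exact interval, and 0.428% on the rest. There were 11.9 sites per Mb in the region (exact Poisson interval 8.64 to 16.0) and 10.7 on the rest, a ratio of 1.11 (0.81 to 1.49). With the bounds moved 1 Mb inward the ratio was 0.76, and with them moved 1 Mb outward 0.91, so its direction depended on the bounds. These intervals cover counting of sites only, and no test between sets of sites was made, since sites of 1 library are not replicates.

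**Figure D2:**
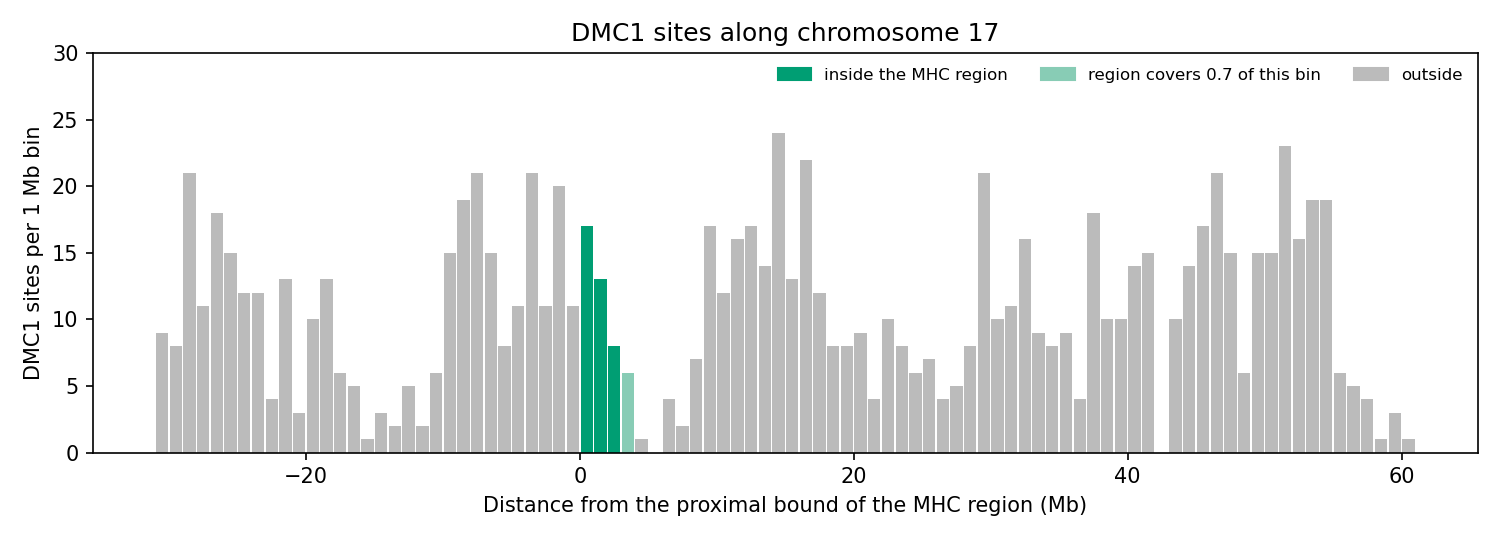
Number of DMC1 sites in 1 Mb bins along chromosome 17 against distance from the proximal bound of the region (Mb). The region's 3 full bins hold 17, 13 and 8 sites and its last 0.7 Mb holds 6, within the range of 0 to 24 (median 10) over the 86 full bins outside.

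Most sites of the region were weak in DMC1. Their signals ran from 10.5 to 523 with a median of 38.5 and quartiles of 20.9 and 73.1, whereas the rest of the chromosome had a median of 64.5 and quartiles of 25.6 and 153. The difference of medians was -0.74 on the log2 scale, with the order-statistic interval of the region median at -1.20 to -0.30, or 1.67-fold lower in the region. Among sites at or above the chromosome's median DMC1 the difference was -0.42, with an interval that held 0 (-1.02 to 0.65). This subset was chosen by DMC1 itself and held 12 of the region's sites, so it cannot show whether strong sites differ. Only 4 of the 44 sites, 9.09% (exact 95% interval 2.53% to 21.7%), were above the chromosome's upper quartile of 149.7, against 25.8% on the rest. At CAST sites the medians were 39.0 and 80.8, a log2 difference of -1.05 (-1.77 to -0.15), and at HUM sites 39.5 and 52.0, a difference of -0.40 (-0.65 to 0.52). The interval at HUM sites held 0, and whether the classes differ in this was not tested. With the bounds moved 1 Mb inward the difference for all classes was -0.78 with an interval of -2.03 to 0.77, from fewer sites.

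H3K4me3 lay closer to the rest of the chromosome. Its median was 9.30 in the region (range 3.69 to 102) and 11.4 on the rest, a log2 difference of -0.30 (-0.72 to 0.06), and the difference of mean log2 values was -0.02. Without the 7 sites that overlap PRDM9-independent H3K4me3 it was -0.45 with an interval that excluded 0 (-0.74 to -0.04), and the DMC1 difference was -0.92 (-1.65 to -0.73). Over all classes the region's sites had less DMC1 for their H3K4me3, with a median ratio of 4.07 against 6.12, a log2 difference of -0.59 (-1.19 to -0.30). At CAST sites this ratio was 4.26 in the region and 7.18 on the rest, a difference of -0.75 (-1.42 to -0.28). At HUM sites it was 4.43 and 5.33, and the interval of the difference of -0.27 held 0 (-0.87 to 0.31). At UNK sites, only 6 in the region, it was 1.82 and 3.76, a difference of -1.05 (-2.38 to -0.61). Among sites at or above the chromosome's median DMC1, 12 of them in the region, the ratio differed by -0.71. That interval also held 0 (-1.70 to 0.24), and this subset too was chosen by DMC1. Without the overlapping sites the difference in ratio was -0.61 (-1.08 to -0.22). Across sites DMC1 and H3K4me3 had a Spearman correlation of 0.60 over the 44 sites and 0.693 over the other 934. The DMC1 values of these points share 1 library, and the source of their H3K4me3 values is not established, so the points are not replicates.

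**Figure D3:**
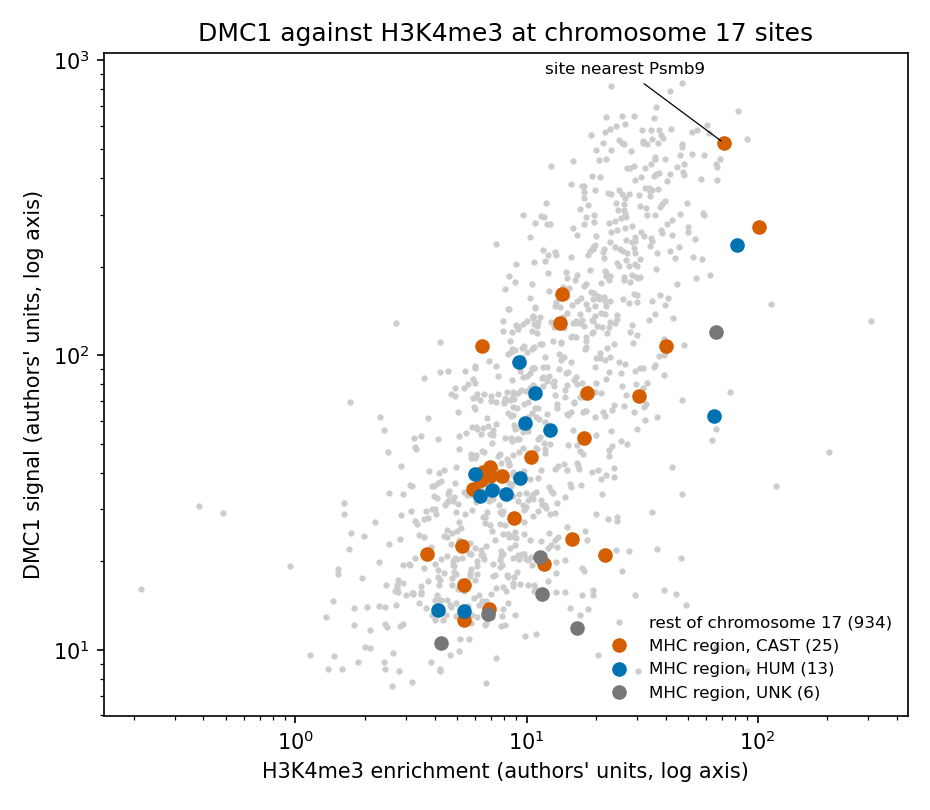
DMC1 signal against H3K4me3 enrichment (both in the authors' units, log axes) at sites of chromosome 17. Region sites are coloured by PRDM9 class over the rest in grey; the Psmb9 site is at 71.7 and 523.

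**Figure D4:**
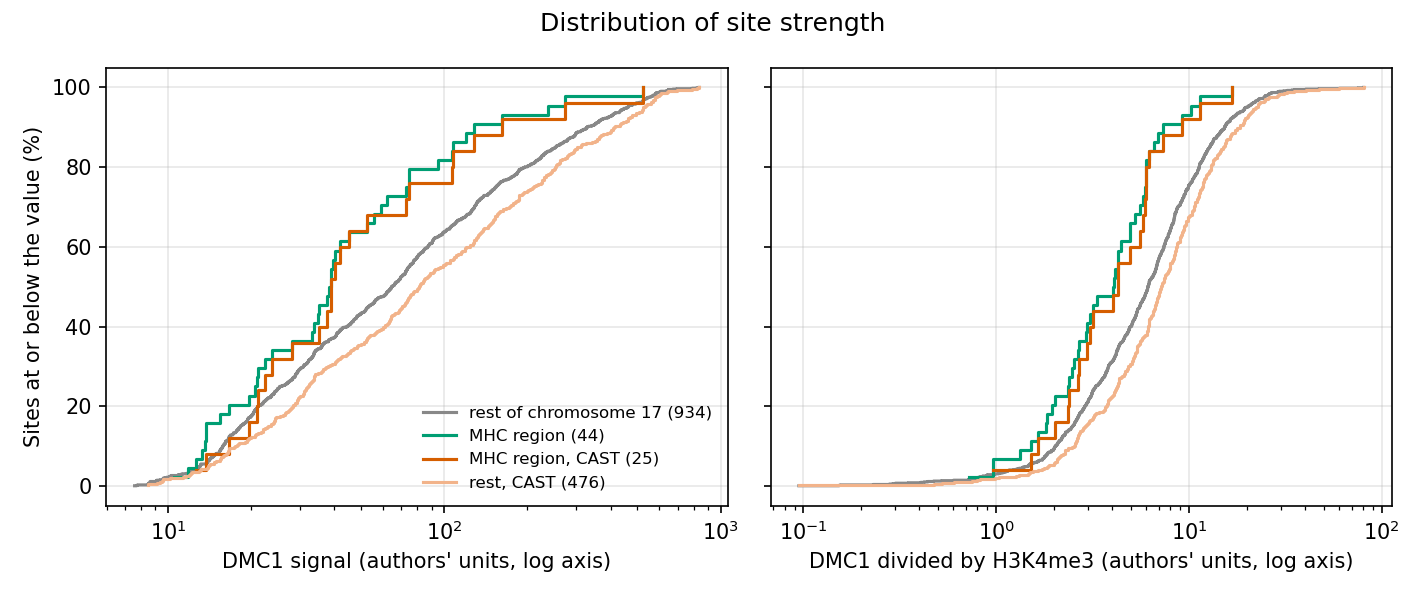
Cumulative share of sites (%) by DMC1 signal (left) and by DMC1 divided by H3K4me3 (right), on log axes, for the region and the rest of chromosome 17 and for CAST sites of each. The region medians are 38.5 and 4.07, against 64.5 and 6.12 on the rest.

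The 3 strongest sites carried 35.1% of the region's DMC1 and the 10 strongest 62.1%. Of these 10, 6 were CAST, 3 HUM and 1 UNK, and 4 overlapped PRDM9-independent H3K4me3. The second lay inside Gtf2h4, which encodes a subunit of the transcription and repair factor TFIIH, 0.99 kb from the start of Vars2 (35668583, CAST, DMC1 272, H3K4me3 102). It had the highest H3K4me3 of the region, overlapped a PRDM9-independent peak and had B6 shares of 0.379 for DMC1 and 0.385 for H3K4me3. The third was the strongest HUM site, between genes and 36.6 kb from Ier3, a gene of the early stress response (35785125, DMC1 237, H3K4me3 81.0, B6 shares 0.443 and 0.507). It ranked 41 of the 383 HUM sites of the chromosome.

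The next 3 sites in DMC1 were used almost wholly on 1 homologue. A CAST site 5.89 kb from H2-K1, a classical class I gene, had DMC1 161 and H3K4me3 14.2 with B6 shares of 0.981 and 0.965 (33990123). A CAST site 38.8 kb from H2-M9 was on the other homologue, with DMC1 128, H3K4me3 13.9 and B6 shares of 0.025 and 0.0526 (36600454). A UNK site 12.1 kb from Vps52, which encodes a subunit of a vesicle tethering complex, had DMC1 120 and H3K4me3 65.7, with B6 shares of 0.973 for DMC1 and 0.669 for H3K4me3 (33979165).

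The other 4 of the 10 lay inside genes. In Ehmt2, the histone H3K9 methyltransferase G9a, a CAST site had DMC1 107 and H3K4me3 of only 6.42, and the share of DMC1 on the B6 homologue was 0.50 (34910753). Its ratio of DMC1 to H3K4me3, 16.7, was the highest of the region. Tnxb, a gene of the extracellular matrix, held a CAST site with DMC1 107 and H3K4me3 40.3 that overlapped a PRDM9-independent peak (34660559, B6 shares 0.414 and 0.437). Ddx39b, an RNA helicase gene, held a HUM site with DMC1 94.6, H3K4me3 9.24 and a DMC1 B6 share of 0.960 (35246776). H2-DMa, whose product helps load peptides on class II molecules, held a HUM site with DMC1 74.6, H3K4me3 10.8 and B6 shares of 0.0115 and 0.282 (34138951). The H2-DMa site also overlapped a PRDM9-independent peak. The ratio of DMC1 to H3K4me3 was 11.4 at the H2-K1 site and 10.2 at the Ddx39b site, next after Ehmt2. It was lowest at a UNK site 53.7 kb from Ier3 (35768039, 0.722), a CAST site 20.3 kb from H2-M11 (36526818, 0.959) and a HUM site 0.988 kb from Kifc1, a kinesin gene (33874676, 0.964).

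The authors' table lists the B6 share of DMC1 for 32 of the 44 sites, so it was missing at 12, or 27.3% (exact 95% interval 14.96% to 42.8%), against 8.99% on the rest of the chromosome. For H3K4me3 it was missing at 9 sites, 20.5% (9.80% to 35.3%), against 7.17%. The 12 sites without a DMC1 share had a median DMC1 of 28.9. Weak sites were more frequent in the region, where 72.7% of sites were at or under the chromosome's median DMC1 of 62.8, against 48.9% on the rest. Among these weaker sites the share was missing at 11 of 32 in the region (34.4%, interval 18.6% to 53.2%) and at 16.2% of 457 on the rest. The part of sequence similarity between the strains or of read mapping in this was not tested. The DMC1 share was missing at 2 of 11 sites from the proximal bound to Notch4, 2 of 11 from Notch4 to H2-D1 and 8 of 22 beyond.

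By count of sites with a share, the region divided between the homologues much like the rest. Pooled over the classes, the region's signal-weighted B6 shares were lower than on the rest. The DMC1 B6 share was over 0.9 at 6 of 32 sites (18.8%), against a background of 19.3% of all autosomal sites with a share, and 20.5% on the rest of chromosome 17. A share under 0.1 was found at 4 sites (12.5%), against a background of 14.3%, and 12.9% on the rest. A share of 0.3 to 0.7 was found at 15 sites (46.9%, exact 95% interval 29.1% to 65.3%), against 46.8%. For H3K4me3, 3 of 35 sites (8.57%) were over 0.9, with a background of 8.95%, and 1 (2.86%) was under 0.1, with a background of 4.86%. The median DMC1 share was 0.468 in the region (0.350 to 0.636) and 0.486 on the rest. Weighted by signal, 52.4% of the region's DMC1 was on the B6 homologue, against 59.1% on the rest. At CAST sites these weighted values were 50.4% and 63.3%, and at HUM sites 49.8% and 51.9%. At UNK sites the order was the other way, with 83.2% in the region, from 4 sites with a share, and 53.4% on the rest. The weighted values have no interval. Without the Psmb9 site the region's value was 52.5%. Weighted in the same way, 48.8% of the region's H3K4me3 was on the B6 homologue, against 55.9% on the rest.

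The 6 sites with a DMC1 share over 0.9 were the sites by H2-K1, Vps52 and Ddx39b given above and 3 others. One was the CAST site 0.786 kb from Cchcr1 (35531801, DMC1 74.3, B6 shares 0.988 and 0.943), with the highest share in the stronger 50% of the region. Another was a HUM site 52.2 kb from Ddr1, a collagen receptor gene (35756937, DMC1 34.8, shares 0.971 and 0.907), and the last a CAST site 8.10 kb from H2-M11 (36538975, DMC1 21.2, DMC1 wholly on B6). The 4 under 0.1 were those in H2-DMa and by H2-M9, the Pbx2 site with a DMC1 share of 0, and a HUM site in C2, a complement gene (34878668, DMC1 33.9, share 0.0714). How many reads stand behind a share of 0 or 1 is unknown.

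The 30 sites with both shares mostly had similar ones. DMC1 was the lower share at 16 of them, 53.3%, against 55.9% on the rest. The shares differed by over 0.3 at 4 sites, 13.3% (3.76% to 30.7%), against 7.25% on the rest of chromosome 17. The widest was at the Kifc1 site (DMC1 share 0.882, H3K4me3 share 0.274), followed by the weaker Notch4 site and the Pbx2 site (DMC1 share 0, H3K4me3 share 0.372) and by the site near Vps52. All of these but the Notch4 site overlapped PRDM9-independent H3K4me3. Of overlapping sites with both shares, 3 of 6 differed by that much in the region and 18 of 76, 23.7%, on the rest. Overlaps were 7 of 44 sites in the region, 15.9% (6.64% to 30.1%), and 9.10% on the rest.

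**Figure D5:**
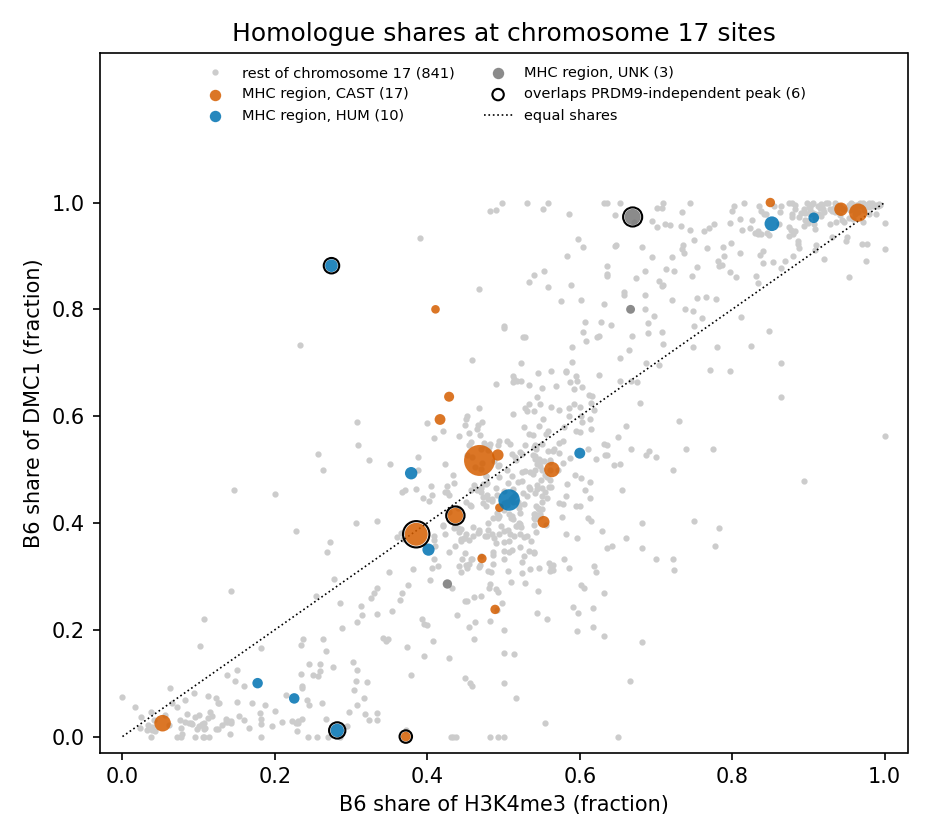
B6 share of DMC1 against B6 share of H3K4me3 (fractions) at sites of chromosome 17 with both. Region sites are coloured by PRDM9 class, with the size of a point growing with DMC1, and rings mark overlaps with PRDM9-independent peaks; 3 of the 4 region sites over 0.3 from the line of equal shares are ringed.

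The region was divided at the annotated starts of Notch4 and H2-D1 into blocks, called here by the MHC class whose genes mark them. Most genes of a block are of other families: 11 of 40 coding genes of the class II block have an H2 symbol, the class I gene H2-K1 among them, and 24 of 88 in the class I block. The class II block, from 33.8 Mb to Notch4, had 11 sites in 0.764 Mb, of which 4 were CAST, 5 HUM and 2 UNK. The class III block had 11 sites in 0.699 Mb, 8 CAST and 3 HUM. The class I block had 22 sites in 2.24 Mb, 13 CAST, 5 HUM and 4 UNK. Sites per Mb were 14.4 (exact Poisson interval 7.18 to 25.8), 15.7 (7.86 to 28.2) and 9.84 (6.16 to 14.9), and these intervals overlapped. Median DMC1 was 40.2, 45.2 and 35.0, and median H3K4me3 10.8, 9.24 and 8.36. The range of DMC1 was widest in the class II block, from 10.5 to 523, and the strongest site of the class III block had 107.

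The widest stretch without a site, of 574 kb (35946502 to 36520152), held 19 protein-coding genes, 9 of them named H2, with 5 of the H2-T and 4 of the H2-M group, and 20 pseudogenes. The second, of 308 kb, held 15 coding genes, of which 3 were H2 genes (H2-M10.5, H2-M10.6 and H2-M5). The third, of 285 kb (35246776 to 35531801), held 10 coding genes, H2-D1 and the 6 H2-Q genes annotated as coding among them. The fourth, of 279 kb (34968224 to 35246776), held 31 coding genes of class III, with Tnf, a cytokine gene, and Msh5, which acts in meiotic crossover formation and lay 60.4 kb from its nearest site. Neighbouring sites of the region were 42.6 kb apart at the median and those of the rest 50.6 kb, where 10 gaps were wider than 574 kb. The part of repeated sequence and read mapping in these gaps was not tested. The densest 100 kb held 5 sites, and did so from 35711195 to 35792857 between Ddr1 and Ier3 and from 36520152 to 36600454 around H2-M11, against at most 9 elsewhere on the chromosome.

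The share of sites inside coding genes was 18 of 44, 40.9% (26.3% to 56.8%), against 55.4% on the rest. Genes cover 39.4% of bases in the region and 42.4% on the rest. Of all 185 coding genes of the region, 29 (15.7%) had a site within 5 kb, against 300 of 860 (34.9%) on the rest, and the lists are read beside these shares. Of the 47 listed genes 12 had one. The share was above 15.7% in the antigen processing, class II and class III lists, and below it in the class I and the meiosis and germline lists. These lists are short, were chosen with earlier results of these data known, and were not tested against the region. Gene length was not matched, and the region held 50 coding genes per Mb against 9.87 on the rest. Of 5 antigen processing genes, Psmb9 alone had a site within 5 kb. Of 10 class II genes 4 did. These were H2-DMa and its neighbour H2-DMb2, which share the HUM site given above, H2-Eb2, and Btnl2, a butyrophilin-like gene that held a HUM site (34366295, DMC1 38.2). H2-Eb2, a class II beta gene, had 2 CAST sites 4.46 kb apart, at 34324435 (DMC1 40.2, DMC1 B6 share 0.273) and 34328897 (DMC1 19.6). The share at 34324435 was among the 3 lowest in the stronger 50% of the region's own sites. H2-Eb1 had none within 5 kb, the nearest being 7.76 kb away, and H2-Ob, H2-Ab1, H2-Aa and H2-Eb1 all lay in a stretch of 144 kb without a site that begins at the Psmb9 site.

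Of 12 class III genes 5 had a site within 5 kb, with 8 sites in all. Beside the Notch4 sites, Tnxb had 3, the strongest of this list among them. Cyp21a1, the steroid 21-hydroxylase gene, held a CAST site (34802345, DMC1 22.5), C2 the HUM site given above, and Hspa1a, a heat shock gene, had a CAST site 1.14 kb away (34968224, DMC1 72.7, overlapping a PRDM9-independent peak). Cyp21a1 has a near-identical pseudogene copy in the class III region, so the placing of reads there is uncertain. Of the 12 class I genes of the list H2-M2 had a site, 0.119 kb before its start in the sequence printed above (37483673, CAST, DMC1 28.1, H3K4me3 8.86, B6 shares 0.636 and 0.429). The list leaves out most H2-T and H2-M genes. Over the 25 coding genes of the region with a class I symbol (H2-K, H2-D, H2-Q, H2-T or H2-M and a number, with H2-T-ps), a set taken after the values were seen, H2-M1 also had one, a CAST site 3.80 kb away (36675993, DMC1 37.7, H3K4me3 6.38, B6 shares 0.594 and 0.417). Of 8 meiosis and germline genes only Ehmt2 did, and neither Msh5 nor Pou5f1, a pluripotency factor gene, had one. The site just outside the proximal bound, at 33797630, was UNK with DMC1 90.5, and the first inside was HUM with 39.5. At the distal bound the H2-M2 site was the last inside, and the next, 485 kb beyond the bound, was HUM with DMC1 15.8.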

How the data were processed

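DMC1 and H3K4me3 were measured by ChIP-seq, with 1 library per assay; an MNase-seq library was not analysed here. The aligner was BWA and the build mm10, per the submitters' processing notes, which give BWA version 0.7.15 for H3K4me3 and none for DMC1. Per the file headers, the DMC1 signal and the H3K4me3 signal of each site are intensities estimated by the authors' peak callers, the B6 fraction is the signal on the B6 homologue over that on both, and the deposited overlap column (score of 0 or 1) marks PRDM9-independent peaks. In the headers Li and colleagues are named as the source of raw H3K4me3 data, so a link to the H3K4me3 library of this series is not established. Scaling to depth, and the reads behind a value, are unknown.

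Sites were compared between the region and the rest of chromosome 17 (Python 3.11.15, pandas 2.3.3, scipy 1.17.1) by counts, medians of log2 values with no pseudocount, and shares. Intervals are 95%: exact Clopper-Pearson for shares, exact Poisson for counts, and order statistics for the region median with the rest taken as fixed. The Clopper-Pearson and order-statistic intervals were tested on simulated data with sites drawn independently. The Poisson intervals were not tested in this way. With 1 library no test across sites was made. Genes and promoter windows came from RefSeq GRCm38.p6, the build of mm10; it gives gene bounds only, so exon and intron were not assigned. All 47 genes of 5 lists were matched. Named were the member genes with every site within 20 kb, listed genes with a site within 5 kb, the 10 strongest sites, the 3 highest and 3 lowest ratios and B6 shares, the widest gap and the densest 100 kb; other sites were named after their values were seen. The members and lists were chosen with earlier results of these data known. A motif search at sites needs the genome sequence, which was not used here.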

Additional observations from a re-analysis of the deposited data

How the results depend on the processing

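Of 85 recomputed values, 78 stayed inside the interval of the reported value (or within 1.5 times where it has none), 7 moved outside and none reversed a difference whose interval excludes 0. With the bounds 1 Mb inward, the ratio of site density was 0.76, the H3K4me3 B6 share under 0.1 differed by -3.82 percentage points (no site left with such a share) and the signal-weighted H3K4me3 B6 share by -3.52 points, against -7.06 with the bounds as used. Without PRDM9-independent overlaps the last was -3.85 points. Among sites at or above the chromosome's median DMC1 the H3K4me3 difference was 0.26 (-0.87 to 1.86), against -0.30 over all sites. The DMC1 difference in this subset, -0.42, stayed inside the interval of the reported value. In HUM sites the DMC1 per H3K4me3 difference was -0.27. With a 20 kb flank 24 listed genes had a site, against 12 with 5 kb. The cause of these moves was not tested beyond the wider flank. Weighted shares and the sets without the strongest sites were added after seeing the data. Without the Psmb9 site the DMC1 difference was -0.76, and without the 3 strongest sites -0.78. No paired analysis was possible because each assay has 1 library. With 44 sites, shares carry wide intervals, and depth is unknown.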

Other observations

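Sites of the region within 2.5 kb of an annotated gene start were 6 of 44 (13.6%), against 6.10% of the 934 on the rest of chromosome 17, and within 1 kb 2 of 44 (4.55%) against 1.71%. Starts are denser in the region, where 22.7% of bases lie within 2.5 kb of one, against 6.13% on the rest. The exact 95% interval of the region's 13.6% of sites, 5.17% to 27.4%, held that 22.7%. At 23 of the 44 sites (52.3%) the H3K4me3 value also occurs at another site of the table, against 59.96% on the rest; the headers do not say what these repeats stand for. Gabbr1, a receptor gene for the transmitter GABA, held a CAST site (37061785, DMC1 35.2) and a HUM site (37067128, DMC1 55.9) 5.34 kb apart, a pair singled out after its values were seen.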
